A study of Mus musculus with 8 samples.

Results

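Trim12a, Trim12c, Trim30a, Trim30b, Trim30d and Trim34a lie close together on mouse chromosome 7, Trim21 lies apart from them on the same chromosome, and Trim25 and Trim14 lie on chromosomes 11 and 4. These 9 genes were taken by symbol from a table of 54532 genes, and all 9 were found. They were chosen with the difference between the strains already known, so their strain difference is given as a description, with no p-value. RNA was sequenced from 4 corneas of BALB/cN mice, labelled BALB/c, and 4 corneas of C57BL/6N mice, both from untreated, naive eyes of inbred strains with no engineered allele. The methods of the study state that only males were used for sequencing and give an age of 8 to 10 weeks for the strains. The labels do not say whether each cornea came from a separate mouse, so p-values measure the spread between these corneas.

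TRIM proteins are a large family built from a RING domain that attaches ubiquitin, a B-box, a coiled coil and, in many members, a PRYSPRY domain that binds targets. Many TRIM genes are induced by interferon, the cytokine that cells release after sensing viral RNA or DNA, and their products either bind viral capsids or tune the sensing pathways. In rodents the Trim5 region of chromosome 7 has expanded into the Trim12, Trim30 and Trim34 copies, some of which differ by few bases, so a short sequencing read may match more than one of them. TRIM25 is known to ubiquitinate the RNA sensor RIG-I, TRIM21 is a cytosolic receptor for antibody bound to virus, and TRIM14 is an adaptor at mitochondria.

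The likeness of the copies is shown first, because it decides what a read count of one of them can mean. The lines that follow give the opening 120 bases of the coding sequence in GENCODE transcripts of GRCm38, with capitals at the bases that differ from Trim12a in the upper 3 lines and from Trim34a in the lower pair.
Trim12a, chr7:104307212-104307331, minus strand: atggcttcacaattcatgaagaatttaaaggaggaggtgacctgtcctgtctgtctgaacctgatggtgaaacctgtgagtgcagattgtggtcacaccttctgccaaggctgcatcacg
Trim12c, chr7:104348228-104348347, minus strand: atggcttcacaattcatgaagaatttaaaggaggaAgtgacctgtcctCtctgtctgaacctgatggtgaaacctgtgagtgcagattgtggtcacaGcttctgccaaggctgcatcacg
Trim5, chr7:104279613-104279732, minus strand: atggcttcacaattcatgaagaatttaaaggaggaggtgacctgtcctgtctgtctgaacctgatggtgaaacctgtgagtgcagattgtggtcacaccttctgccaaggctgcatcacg
Trim34a, chr7:104247731-104247850, plus strand: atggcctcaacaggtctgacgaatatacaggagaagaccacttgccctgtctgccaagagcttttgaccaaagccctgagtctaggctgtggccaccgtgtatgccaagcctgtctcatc
Trim34b, chr7:104329548-104329667, plus strand: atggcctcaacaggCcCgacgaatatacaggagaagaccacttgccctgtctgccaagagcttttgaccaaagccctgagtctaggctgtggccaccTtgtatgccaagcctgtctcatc
In this window Trim12c differed from Trim12a at 3 of 120 bases, Trim5 at 0, and Trim34b differed from Trim34a at 3. Over the 891 aligned coding bases Trim12a was 96.4% identical to Trim12c and 97.1% identical to Trim5. Over 1491 bases Trim12c was 96.6% identical to Trim5. The coding sequence of Trim12a was the shortest of these, with 891 bases against 1491 in Trim12c and in Trim5. Trim34a and Trim34b were 98.8% identical over 1455 bases, with a longest identical run of 221 bases. Trim30a was 90.2% identical to Trim30d, 87.0% to the aligned part of Trim30b and 82.9% to Trim30c.

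Reads were 100 bases long, so stretches of 100 bases that occur in another gene's transcripts cannot be assigned from a single read. Such stretches made up 39.0% of Trim34a (part of them in its antisense gene Gm47248), 30.5% of Trim34b, 11.7% of Trim5, 8.05% of Trim12c, 3.29% of Trim12a, 4.41% of Trim30a and 4.57% of Trim30d. Trim30b, Trim21 and Trim25 had none. In Trim14, 29.9% was shared, and 1356 bases of it match Nans, which lies on the opposite strand and overlaps Trim14. The libraries were strand-specific, but the strand setting of the counting and the treatment of reads with several matches are not given in the sources used here.

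The interferon-stimulated response element, a promoter element of genes that interferon induces, has a core of GAAA, any 2 bases and GAAA again. It was searched on both strands in RefSeq promoter windows of GRCm38.p6, from 250 bases before to 50 bases after each start, and 8 of the 9 genes had a window (Trim14 had none). The lines below show 30 bases around the match in 7 genes of the set or its copies, in the direction of transcription, with the core in capitals (on the opposite strand it reads TTTC, 2 bases, TTTC).
Trim12a, chr7:104315466-104315495: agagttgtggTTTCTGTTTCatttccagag
Trim12c, chr7:104353359-104353388: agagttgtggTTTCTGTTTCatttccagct
Trim5, chr7:104288136-104288165: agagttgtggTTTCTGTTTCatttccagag
Trim30a, chr7:104465210-104465239: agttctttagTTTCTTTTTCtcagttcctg
Trim30d, chr7:104507871-104507900: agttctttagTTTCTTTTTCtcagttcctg
Trim34a, chr7:104244457-104244486: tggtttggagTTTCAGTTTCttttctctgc
Trim21, chr7:102565450-102565479: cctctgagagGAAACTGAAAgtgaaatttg
Trim21 held a second, overlapping match, and a second start of Trim30a held one too. The core was in 3.44% of all 32851 windows, and it was absent from the windows of Trim25, Trim30b, Trim30c, Trim34b, Trim6 and Trim68. A second motif (TTC, any 3 bases, GAA) was in 8.30% of all windows and, among these genes, in that of Trim30c alone. A match is a description of letters and not a site, and Trim30a, which had the largest rise of the 9, and Trim12a, which had the largest fall, both carried the first.

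The deposited values are rlog values, a log2 scale on which DESeq2 draws a gene with few reads towards its mean, so that an rlog difference understates a fold change. Every difference is the BALB/cN mean less that of C57BL/6N. Read counts were recovered by inverting the transformation, and normalized reads are these counts divided by the size factor of each cornea. Recovered counts summed to 36.7 to 41.2 M reads per BALB/cN cornea and 29.7 to 37.0 M per C57BL/6N cornea. Krt12, the keratin of the corneal epithelium, had on average 857862 and 860428 normalized reads, so the tissue carried its defining marker in both strains. Sums over the stroma markers ranged from 79543 to 287630 normalized reads in BALB/cN and from 41024 to 387350 in C57BL/6N, and those of lens and pigment cells ranged widely between corneas of a strain too. In whole corneas, fewer cells of a type and less RNA per cell cannot be told apart.

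Of the 9 genes, 4 passed the call of an adjusted p of 0.01 or less upwards in BALB/cN (Trim30a, Trim21, Trim12c and Trim14), 1 downwards (Trim12a), and Trim30b, Trim30d, Trim34a and Trim25 did not. Over all 25402 genes tested 5.74% were called, 2.83% higher and 2.91% lower. The same 5 genes had strains that did not overlap, as had 18.3% of all genes tested (BALB/cN above in 8.75% and below in 9.58%). Nothing is read from these counts, since the genes were chosen on this contrast. The median difference of the 9 was 0.22, beside 0.0077 over all genes tested.

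**Figure D1:**
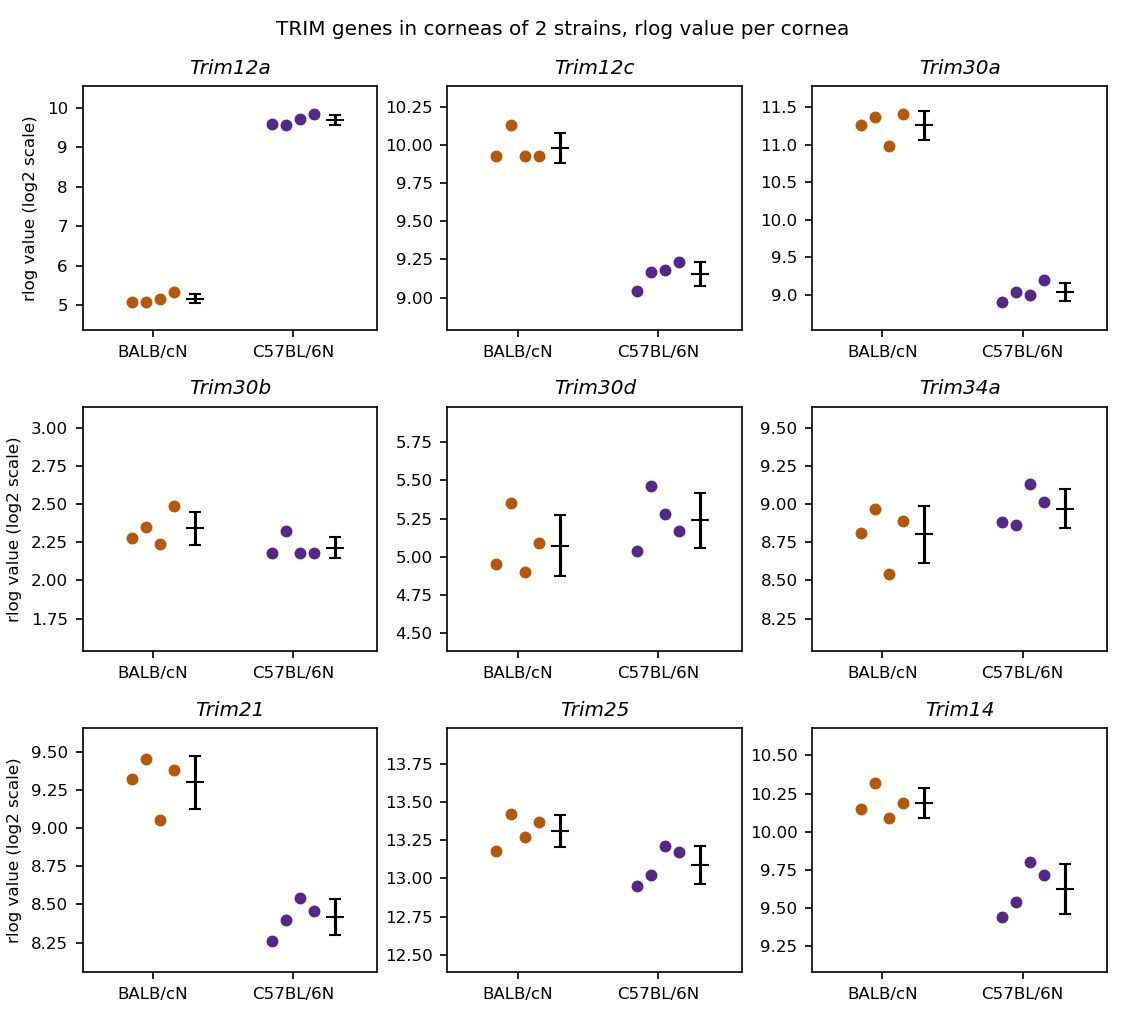
rlog value (log2 scale) of the 9 genes in each of 4 BALB/cN and 4 C57BL/6N corneas, as points in the order of their replicate numbers, with the mean and SD as a bar beside them. Each panel has its own axis, which does not start at 0, and the strains are apart in Trim12a, Trim12c, Trim30a, Trim21 and Trim14 and overlap in the other panels.

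Trim12a (ENSMUSG00000066258, chr7:104299894-104315466, minus strand) is a short relative of the retroviral restriction factor TRIM5. It had 1241, 1225, 1123 and 1471 recovered reads in the C57BL/6N corneas and 0, 0, 1 and 5 in the BALB/cN corneas. The lowest C57BL/6N cornea had 1123 reads and the highest BALB/cN cornea 5. The rlog value was 5.17 ± 0.11 in BALB/cN and 9.68 ± 0.13 in C57BL/6N (SD, n = 4 each), a difference of -4.52 that was the third lowest of 25402 genes. On the scale of reads it was 1003-fold lower in BALB/cN, with an exact Poisson interval of 461 to 2734 (95%) for the 6 reads counted there. Without BALB/cN replicate 4, which holds 5 of those 6 reads, 1 read was left and the ratio was 4609-fold, with an interval of 827 to 182048. These intervals cover counting error only, as reads copied by PCR are not independent molecules.

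Trim12c (ENSMUSG00000057143, chr7:104338754-104353362, minus strand), whose product is known to act with TRAF6 in interferon and NF-κB signalling, went the other way. BALB/cN corneas had 1249, 1483, 1141 and 1108 recovered reads and C57BL/6N corneas 440, 511, 410 and 511. The lowest BALB/cN cornea lay above the highest C57BL/6N cornea. Normalized reads were 1128 ± 112 and 505 ± 39.6, which is 2.24-fold more in BALB/cN, and the rlog difference was 0.82.

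Trim5 (ENSMUSG00000060441, chr7:104263386-104288094, minus strand), the third gene of this near-identical group and not one of the 9, was lower in BALB/cN. It had 0, 0, 1 and 0 recovered reads there against 95, 121, 148 and 187 in C57BL/6N, an rlog difference of -1.87 (limma adjusted p = 2.31e-05). With 1 read in all BALB/cN corneas the ratio was 664-fold, with a counting interval of 119 to 26220. Both genes that were nearly without reads in BALB/cN are thus neighbours and close copies of a gene that had reads in every cornea.

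To take the sharing of reads into account, the reads of Trim12a, Trim12c and Trim5 were added up. The sum was 1071, 1296, 1076 and 1078 normalized reads in the BALB/cN corneas and 1809, 1855, 2125 and 2296 in the C57BL/6N corneas. The strains stayed apart, with 1130 ± 111 against 2021 ± 229.8 reads, so the sum was 1.79-fold lower in BALB/cN. Trim12a held 66.0 to 69.9% of it in C57BL/6N and 0 to 0.449% in BALB/cN, where Trim12c held 99.6% or more. The mean difference was 624 normalized reads on Trim12c and -1365 on Trim12a, so the rise of the one was smaller than the fall of the other. How many reads of one copy were counted on another was not tested.

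**Figure D2:**
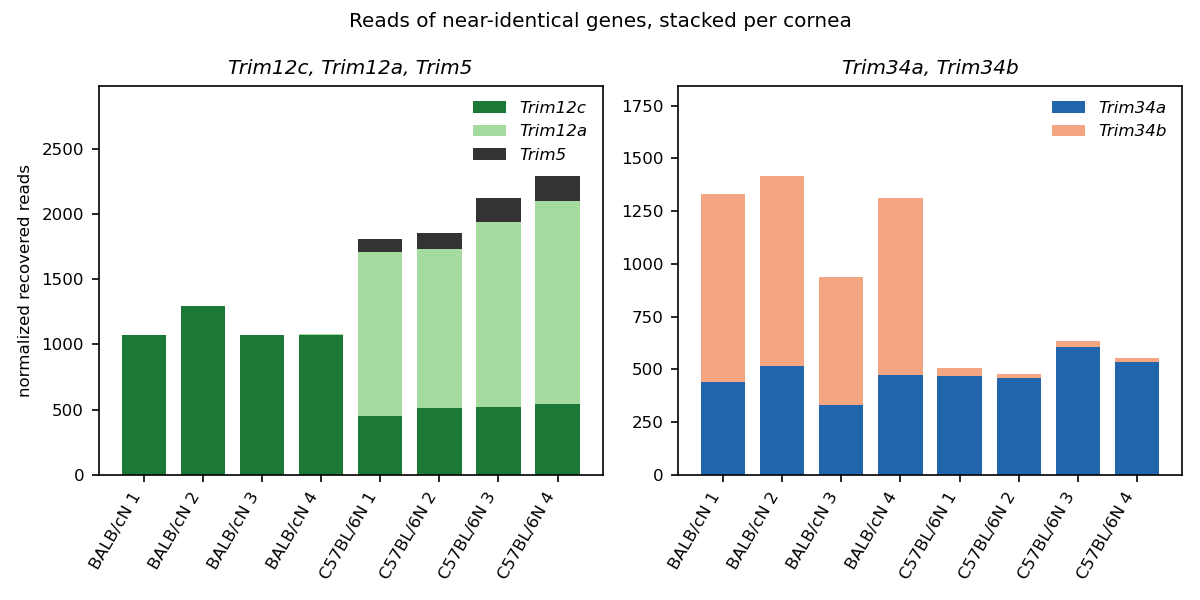
Normalized recovered reads stacked for Trim12c, Trim12a and Trim5 (left) and for Trim34a and Trim34b (right), 1 bar per cornea, with the axis from 0. The left sums lie between 1071 and 1296 in BALB/cN and between 1809 and 2296 in C57BL/6N, and the right sums between 935 and 1418 and between 479.6 and 635.

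Trim34a (ENSMUSG00000056144, chr7:104244457-104262234, plus strand), another TRIM5 relative, had 513, 588, 350 and 490 recovered reads in BALB/cN and 460, 460, 480 and 505 in C57BL/6N. The strains overlapped, with an rlog difference of -0.17. Its copy Trim34b (ENSMUSG00000090215, chr7:104329471-104336909, plus strand), not one of the 9, had 1043, 1035, 644 and 864 reads in BALB/cN against 36, 20, 22 and 18 in C57BL/6N. That is 31.3-fold more in BALB/cN, with an rlog difference of 2.99 (limma adjusted p = 4.91e-07). Trim34b held 63.8 to 67.0% of the reads of the pair in BALB/cN and 3.44 to 7.26% in C57BL/6N. The sum of the pair was 1250 ± 215 normalized reads in BALB/cN and 543 ± 68.2 in C57BL/6N, a 2.30-fold difference with no overlap. Trim34a alone therefore showed overlapping strains while the pair did not, and with 30.5% of Trim34b shared with Trim34a in 100-base stretches the split between them is uncertain. Adding all 5 genes of the Trim12, Trim5 and Trim34 groups gave 2380 ± 288 and 2565 ± 279 normalized reads, which overlapped. The Trim34 pair shared no 100-base stretch with the Trim12 and Trim5 genes. This sum therefore joins a fall and a rise and does not correct for shared reads.

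Trim30a (ENSMUSG00000030921, chr7:104409025-104465193, minus strand), known as a brake on NF-κB signalling through the adaptors TAB2 and TAB3, had the largest rise of the 9. BALB/cN corneas had 3668, 3944, 2609 and 3681 recovered reads and C57BL/6N corneas 321, 377, 285 and 421. Even the lowest BALB/cN cornea, replicate 3, lay far above every C57BL/6N cornea, and 5 of the 8 recovered values were within 0.1 of a whole number. Normalized reads were 3153 ± 498 and 377 ± 49.9, an 8.35-fold difference, and the rlog difference was 2.23. Its copy Trim30d (ENSMUSG00000057596) had 25, 61, 19 and 31 reads in BALB/cN and 26, 66, 37 and 35 in C57BL/6N, with overlapping strains and an rlog difference of -0.17. Its recovered values were not whole (1 of 8 within 0.1 of a whole number), so they are approximate. Trim30b (ENSMUSG00000052749) was nearly unread, with 6, 10, 3 and 18 reads in BALB/cN and 0, 7, 0 and 0 in C57BL/6N. The strains overlapped at C57BL/6N replicate 2, and the rlog difference was 0.12. The antisense gene Gm15133, described below, matches Trim30b at 96.4% over 309 bases, with no shared 100-base stretch. Together they had 8.54 ± 6.42 normalized reads in BALB/cN and 28.1 ± 4.07 in C57BL/6N. That sum was 3.29-fold lower in BALB/cN with no overlap, the opposite direction to Trim30b alone. Trim30c, not one of the 9, was higher in BALB/cN by 0.60 (limma adjusted p = 0.00208), with about 40, 56, 21 and 46 reads against 0, 2, 0 and 0, a 68.6-fold ratio with a counting interval of 19.0 to 566. Only 1 of its 8 recovered values was within 0.1 of a whole number, so the reads, the ratio and the interval are approximate. After centring each cornea on its median the adjusted p of Trim30c in limma was 0.0107. Trim30a and Trim30d together had 7.55-fold more reads in BALB/cN, close to Trim30a alone, as Trim30d had few reads.

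Trim21 (ENSMUSG00000030966, chr7:102557921-102565486, minus strand) had 856, 951, 598 and 804 recovered reads in BALB/cN and 241, 289, 263 and 290 in C57BL/6N. The strains were apart, with 727 ± 116 against 293 ± 36.6 normalized reads, 2.48-fold more in BALB/cN and an rlog difference of 0.89. Trim14 (ENSMUSG00000039853, chr4:46493781-46536141, minus strand) had 1418, 1629, 1220 and 1291 reads against 596, 672, 683 and 754. The strains were apart by 1.71-fold, with an rlog difference of 0.57. Together with Nans, with which it overlaps, the reads were 1.32-fold more in BALB/cN. Trim25 (ENSMUSG00000000275, chr11:88999376-89020293, plus strand) had rlog values of 13.18, 13.42, 13.27 and 13.37 in BALB/cN and 12.95, 13.02, 13.21 and 13.17 in C57BL/6N. The strains overlapped between BALB/cN replicate 1 and C57BL/6N replicate 3, and the difference was 0.22. The activator of RIG-I thus had the smallest ratio, 1.23-fold, among those with over 1000 normalized reads in BALB/cN.

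Levels of different genes were compared as normalized reads per kilobase of exon. In BALB/cN the order was Trim25 with 1815 ± 178, Trim30a with 767 ± 121, Trim12c with 302 ± 29.9, Trim14 with 290.3 ± 27.1, Trim21 with 196 ± 31.3 and Trim34a with 169.5 ± 30.6 reads per kilobase, followed by Trim30d (8.16 ± 4.24), Trim30b (1.13 ± 0.852) and Trim12a (0.250 ± 0.399). The corneas overlapped between Trim12c and Trim14, between Trim21 and Trim34a, and between Trim30b and Trim12a, so these neighbours in the order were not separated. In C57BL/6N Trim25 was again highest with 1481 ± 168 reads per kilobase, and Trim12a was next with 236 ± 26.4. Trim34a (199.6 ± 26.4), Trim14 (169 ± 26.9) and Trim12c (135 ± 10.6) followed, each overlapping the gene before it. Trim30a stood at 91.8 ± 12.1 and overlapped Trim21 at 79.0 ± 9.86, and Trim30d (11.7 ± 4.46) and Trim30b (0.232 ± 0.465) were lowest. Trim30a thus stood second per kilobase in BALB/cN and sixth in C57BL/6N, and Trim12a last and second.

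The genes of the chromosome 7 cluster did not share a direction. From Trim6 to Trim30d, a stretch of 289 kb, Trim5, Trim12a and the antisense gene Gm15133 next to Trim12a were lower in BALB/cN, and Trim34b, Trim12c, Trim30c and Trim30a, which come after them by position, were higher. Gm15133 had 0 reads in every BALB/cN cornea and 26.3 ± 4.96 normalized reads in C57BL/6N, so it was at least 9.65-fold lower against 3 reads per cornea (limma adjusted p = 0.000624). It lies on the opposite strand and overlaps the Trim12a locus only at chr7:104315019-104315466. Reads within that overlap could be told apart only if the counting used the strand. The next counts cover a wider region, from Trim21 to Trim30d, with protein-coding genes beyond both ends. Of its genes that are not among the 9, 23 were tested. Of these, 2 rose (Trim34b, Trim30c) and 2 fell (Trim5, Gm15133), beside 2.83 and 2.91% of all genes. The 10 genes beyond the ends lie apart from the stretch between Trim6 and Trim30d. They run from Nup98 to Rrm1 (chr7:102119398-102469771), past Trim21, and from Olfr683 to Olfr691 (chr7:105140839-105342270). Of these 10, 0 were called by limma on rlog values (4 had an unadjusted p under 0.05), and limma voom on recovered reads called 1, Rhog. Trim6 had 24, 31, 14 and 25 reads in BALB/cN against 0, 12, 0 and 0, a difference of 0.31 that was not called (limma adjusted p = 0.0283), and Trim68 differed by 0.20 (limma adjusted p = 0.0985). Trim30e-ps1 was at 0 in every cornea.

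**Figure D3:**
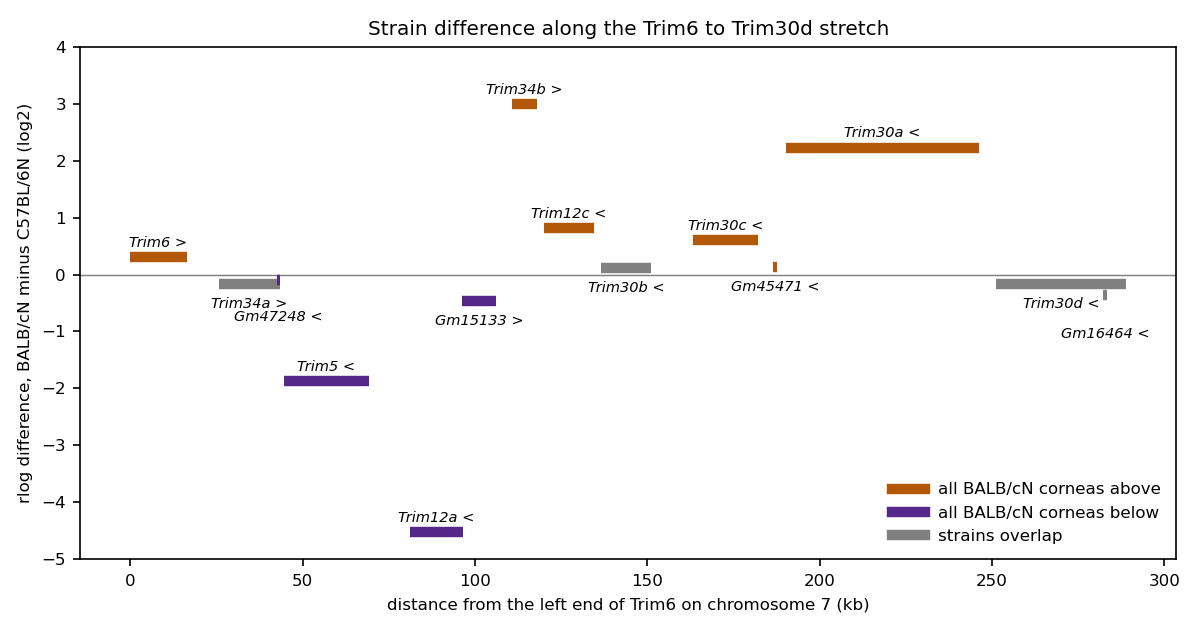
rlog difference (BALB/cN minus C57BL/6N, log2) of each tested gene from Trim6 to Trim30d on chromosome 7, against distance in kb from the left end of Trim6. Bars span the genes and the sign after each name gives the strand. Trim34b (2.99) and Trim30a (2.23) lie highest and Trim12a (-4.52) lowest, with Trim34a, Trim30b, Trim30d and Gm16464 grey because their strains overlap.

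Of the other TRIM family genes, 64 were in the table, 48 were tested and 8 were at 0 in every cornea. In limma 4 of the 48 rose in BALB/cN and 3 fell, beside 5.74% called of all genes, and their median difference was 0.050. Outside the chromosome 7 group, Pml, which builds the nuclear bodies named after it, rose by 0.46 (limma adjusted p = 0.00312), and Trim56, known to act on STING signalling, by 0.43 (limma adjusted p = 0.00106). Trim29, a TRIM of squamous epithelia, fell by 0.52 (limma adjusted p = 0.00279) and had the most normalized reads per kilobase of the family in both strains, and Trim16, linked to keratinocyte differentiation, fell by 0.39 (limma adjusted p = 0.00291). These 4 calls depended on the scaling, as all of them missed the threshold after median centring. The limma adjusted p-values were then 0.0417 for Pml, 0.0360 for Trim56, 0.0171 for Trim29 and 0.0187 for Trim16. Trim56 was otherwise lost only under an empirical null. Leaving out single corneas also took Pml, Trim29 and Trim16 just past the threshold, to limma adjusted p-values of 0.0115, 0.0105, 0.0103 and 0.0131 for Pml (without BALB/cN replicate 2 and C57BL/6N replicates 2, 3 and 4), of 0.0119, 0.0106, 0.0119 and 0.0111 for Trim29 (without BALB/cN replicates 1, 3 and 4 and C57BL/6N replicate 4) and of 0.0122, 0.0119 and 0.0119 for Trim16 (without BALB/cN replicates 1 and 4 and C57BL/6N replicate 4).

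**Figure D4:**
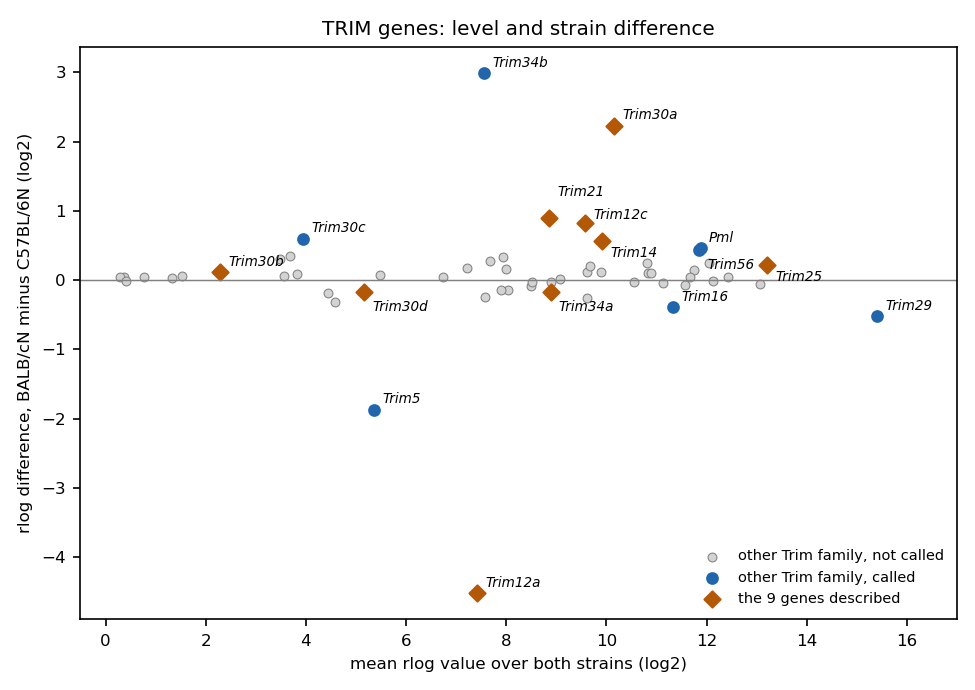
rlog difference (BALB/cN minus C57BL/6N) against the mean rlog value, both on a log2 scale, for the 9 genes (diamonds, given as a description) and the 48 other TRIM family genes tested (circles). Most of the family lies near 0, with Trim34b at 2.99 and Trim5 at -1.87 as the outermost of the other genes.

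A list of partner genes was read beside the TRIM genes. Its 32 genes encode known partners, substrates or pathway neighbours of TRIM proteins in RNA and DNA sensing. Genes of the interferon pathway, such as Irf9, Stat2 and Isg15, are among them, so the list is not one of TRIM targets. In limma 8 of the 32 rose in BALB/cN, 0 fell and 24 were not called, beside 2.83% of all genes called higher, and the median difference was 0.14. The list was chosen with earlier results of these data known, so nothing is read from this count. Of 15 genes with an unadjusted p under 0.05, 2 were lower in BALB/cN, and limma voom on recovered reads called 9 genes, 0 of them lower. The largest rise was that of Isg15, a ubiquitin-like modifier, with 5315, 5901, 3735 and 6250 recovered reads in BALB/cN and 461, 419, 335 and 397 in C57BL/6N, a difference of 2.54 (limma adjusted p = 1.14e-06). Irf7, the factor that amplifies interferon production, rose by 1.93 (limma adjusted p = 1.31e-06). Irf9 and Stat2, whose products act together in the response to interferon, rose by 1.59 and 1.16 (limma adjusted p = 4.25e-06 and 0.000133). The RNA sensors Ifih1 and Ddx58, the latter encoding RIG-I, rose by 1.15 and 0.80 (limma adjusted p = 3.71e-05 and 0.000202). Nmi rose by 0.69 (limma adjusted p = 0.000501) and Zc3hav1, the antiviral protein ZAP known to work with TRIM25, by 0.37 (limma adjusted p = 0.00188). Zc3hav1 had an adjusted p of 0.129 in limma after median centring. Tab2 (-0.13), Tab3 (0.025) and Traf6 (-0.12), with which TRIM30a and TRIM12c are known to act, Mavs (-0.14) and the interferon receptor genes Ifnar1 (-0.12) and Ifnar2 (0.069) were not called.

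**Figure D5:**
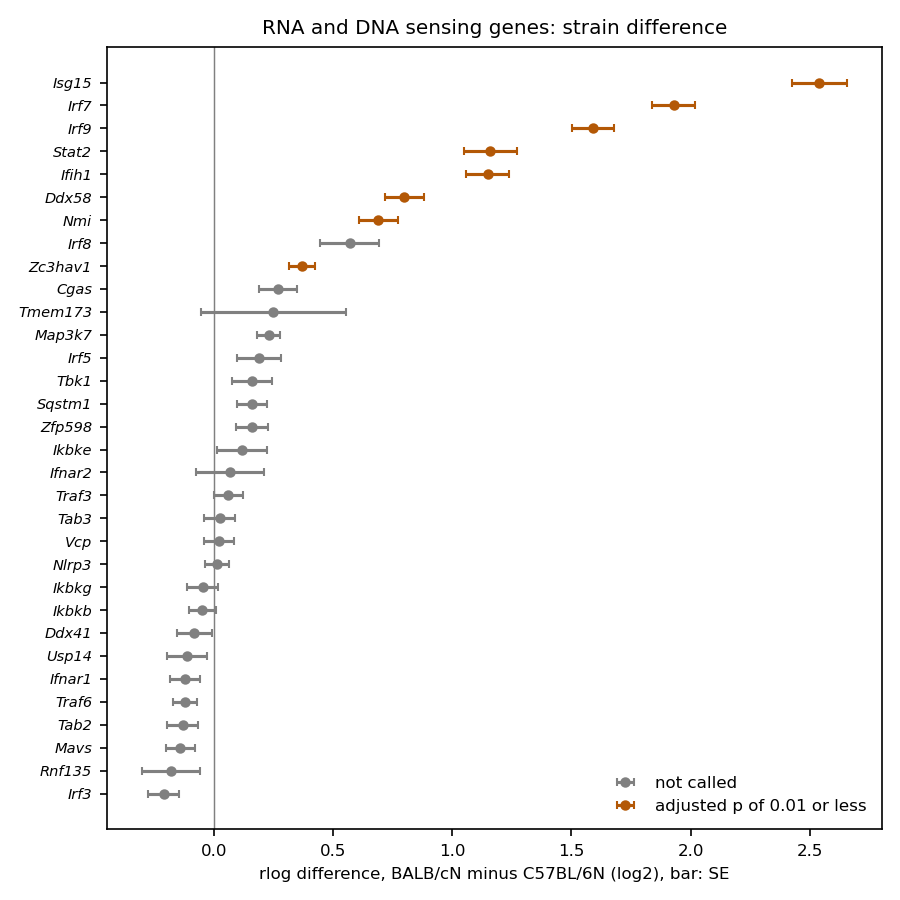
rlog difference (BALB/cN minus C57BL/6N, log2) of the 32 genes of the partner list, with the standard error of the limma fit as a bar. The 8 genes with an adjusted p of 0.01 or less lie between 0.37 (Zc3hav1) and 2.54 (Isg15), and the lowest gene, Irf3, lies at -0.21.

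Genes of immune cells were read beside these results. Of the 12 macrophage markers 0 were called by limma, with the lowest adjusted p at 0.0978 (Lyz2), 3 at an unadjusted p under 0.05 and 0 called by limma voom. Their median difference was 0.22, with 10 of 12 higher in BALB/cN, among them all 3 with an unadjusted p under 0.05. Their sum was 3366 to 4276 normalized reads in BALB/cN and 3263 to 3912 in C57BL/6N. The dendritic and Langerhans cell list had 3 tested genes of 7, 0 of them called by limma or limma voom and 1 at an unadjusted p under 0.05, with Xcr1 at 0 and Cd207 at 0 and 0.999 normalized reads. Of 10 lymphocyte markers, Cd3d, Cd8a, Ms4a1, Ncr1 and Nkg7 were at 0 and the sum was at most 19.4 reads in any cornea. Of 5 neutrophil markers, Ly6g and Mpo were at 0, and S100a9 fell by 1.54 in BALB/cN (limma adjusted p = 3.95e-05). The other 2, Csf3r (0.15) and S100a8 (0.021), did not fall and were not called, and the median difference of the list was 0.021. Among the lists of endothelium, corneal epithelium, stromal keratocytes, lens and pigment cells, limma called 1 gene, Cldn7 of the epithelium list, which rose by 0.37 (limma adjusted p = 0.00409). It missed the threshold after median centring (limma adjusted p = 0.150) and without BALB/cN replicate 1 or 4 or C57BL/6N replicate 1, 2 or 3 (limma adjusted p = 0.0118, 0.0135, 0.0137, 0.0141 and 0.0109). The median difference was 0.49 in the endothelium list (6 of 7 genes higher in BALB/cN, 2 at an unadjusted p under 0.05, Flt4 with the lowest limma adjusted p of 0.0230), -0.020 in epithelium, 0.80 in stroma (6 of 7 higher), 1.13 in lens (6 of 6) and 0.75 in pigment cells (5 of 5), and 0 genes of the last 3 lists had an unadjusted p under 0.05. The part of these cells in the TRIM values was not tested.

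Across the 8 corneas, the genes most like Trim30a among 12886 well-read genes (mean rlog at or above log2 of 100) were Sp110 (Pearson r = 0.9980), Gbp3 (0.9979) and Irf7 (0.9969). Those most like Trim12a were H60c (0.9995), Piezo2 (0.9989) and Pbp2 (0.9988). All 8 points come from the same libraries and mostly reflect the difference between the strains, so these values carry no p. Within the strains, the deviations of Trim34a and Trim21 from the strain means went together most closely (r = 0.94 over 8 corneas). Those of Trim25 and Trim14 had r = 0.89 and those of Trim30a and Trim21 r = 0.84, whereas Trim12a and Trim12c had r = 0.08. With 0, 0, 1 and 5 reads of Trim12a in BALB/cN, its deviations there are at the floor, so this last value says little. Of the 9 genes 6 had their lowest BALB/cN value in replicate 3 and 7 their lowest C57BL/6N value in replicate 1. The 7 include Trim30b, which had 0 reads in C57BL/6N replicates 1, 3 and 4. The share over all genes was not determined, so nothing is read from these counts.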

How the data were processed

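Strand-specific libraries of total RNA came from 4 corneas of each strain and were read in pairs. The authors aligned reads with TopHat2 2.1.1 to strain-specific pseudo-genomes of GRCm38, counted them per Ensembl gene with HTSeq 0.7.1 and deposited DESeq2 1.30 rlog values, on a log2 scale and normalized for library size, with decimal commas. No columns were left unused.

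The strain difference was fitted with limma 3.58.1 (R 4.3.3; lmFit, eBayes with a variance trend) over 25402 genes whose rlog mean was 0 or more, with Benjamini-Hochberg adjustment and calls at an adjusted p of 0.01 or less. Inverting the rlog formula, with constants fitted so that values came out whole, gave read counts, a step chosen after seeing the data. In genes held out of that fit, 94.3% of values at means of 10 to 1000 reads were whole to within 0.1, compared with 19.8% once random fractions had been added, and 24.9% above 5000 reads. Recovered values were rounded. Copies were genes of at least 95% identity over 200 bases (BLAST 2.17.0). The procedures were tested on simulated data with a single dispersion for all genes and the same rlog formula as the inversion, so neither assumption was tested. No single value outside the limma fit needed a permutation test.

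The genes and lists were chosen with earlier results of these data known. Named genes were the 9, the chromosome 7 cluster by symbol, the other TRIM genes called (at most 5 each way), every called partner or flanking gene (1 gene of the partner list is not reported here), and the 3 genes most like Trim30a and Trim12a. Gm15133 and genes not called were named after their values were seen. Alternatives were no variance trend, a robust fit, other filters, median centring, quantile normalization, leaving out each cornea, a replicate block, an empirical null, an adjusted p of 0.05 and copies at 90% over 100 bases. limma voom on recovered reads was added after seeing the data. Computation used Python 3.11.15, numpy 2.4.6, scipy 1.17.1, pandas 2.3.3, biopython 1.88 and matplotlib 3.10.9.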

Additional observations from a re-analysis of the deposited data

Results flagged for a closer look

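Of 54 groups of 4 corneas tested among the named genes, 5 had a cornea set apart from the other 3 by a gap that Dixon's test at 95% takes as too wide, where chance sets apart about 1 in 20, or 2.70. Trim12c had an rlog value of 10.13 in BALB/cN replicate 2, beside 9.93 in the nearest other cornea. C57BL/6N replicate 2 stood above its strain in Trim30b (2.32, nearest 2.18) and in Trim6 (3.49, nearest 3.27), where it alone had reads, 7 and 12. Zc3hav1 had 12.14 in C57BL/6N replicate 4 (nearest 12.05). Isg15 had 9.37 in C57BL/6N replicate 1 (nearest 9.27).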

How the results depend on the processing

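The strain differences of the 9 genes moved by less than the SD of a strain in all 107 comparisons with an alternative (scaling, filters, block, corneas left out). Only median centring and quantile normalization could have moved a difference by more than that. The filter and the block left each difference as it was, and leaving out a single cornea cannot shift a strain mean by an SD. No called gene of the lists reversed its direction. Counts of called genes were within 1.5 times of the main count in 86 of 108 comparisons. Recalibrating p-values to an empirical null (SD 1.67) called 0 genes in every list and 0 of all genes (1730 at an unadjusted p under 0.05 there, smallest adjusted p 0.130), where limma called 1458 and voom on recovered reads 1560. Median centring called 958 of all genes, 2 other TRIM genes and 1 cell type marker, and Trim14 was not called (difference 0.49). Corneas with the same number did not deviate together (correlations of deviations 0.31, -0.53, -0.20 and -0.45), and a replicate block called 554 of all genes, 3 other TRIM genes, 2 neighbours and 1 marker. Under the block Trim14, Trim29, Pml, Trim16, Trim30c, Gm15133, Zc3hav1 and Cldn7 were not called. At an adjusted p of 0.05, 2842 genes and 7 neighbours were called. Leaving out a cornea gave 953 to 1163 genes, 4 to 7 other TRIM genes (4 without C57BL/6N replicate 4), 1 to 3 markers, 4 to 5 of the 9 and 8 partners each time. Trim14 was not called without BALB/cN replicate 1 or 4 or C57BL/6N replicate 2 (differences 0.58, 0.57 and 0.54). Copies at 90% identity over 100 bases brought in repeats and other genes and moved the log2 ratio of reads from -0.84 to -0.081 (Trim12a) and -0.23 (Trim12c), from 2.92 to 1.14 (Trim30a) and from 1.19 to -0.61 (Trim34a, now with Trim12a among its copies). Few reads limit Trim30b, Trim30d, Trim6 and Trim30c.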
